A study of Mus musculus with 2 samples.

Results

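The genes described here encode enzymes that modify and crosslink collagen. They are 10 genes taken by symbol, out of the 28000 genes counted: the prolyl 4-hydroxylase subunits *P4ha1*, *P4ha2* and *P4hb*, the lysyl hydroxylases *Plod1*, *Plod2* and *Plod3*, the collagen chaperone *Serpinh1*, and the lysyl oxidases *Lox*, *Loxl1* and *Loxl2*. All 10 genes had unique molecular identifiers (UMIs) in both libraries.

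The study deleted the histone chaperone gene *Hira* in the melanocytic lineage of mouse embryos and compared sorted skin cells by 3′ single-cell RNA sequencing. The HIRA WT library came from a TyrCre::Hira wt/wt:tdTomato embryo and the HIRA KO library from a TyrCre::Hira fl/fl:tdTomato embryo, both at E15.5 and on a mixed strain close to C57BL/6J. Both carry a Rosa26 tdTomato reporter that is switched on by Cre, and Cre is under the *Tyr* promoter, which is active in melanocytic cells and in some other neural crest lineages, so that the deletion is limited to cells that have expressed Cre. Live tdTomato+ cells of trunk skin were sorted, and the methods of the study say that embryos were processed one by one, while the labels do not name the embryo behind either library. In all, 7073939 UMIs were counted over 1546 barcodes of the WT library (median 3961 each) and 5049514 over 846 barcodes of the KO library (median 5152.5). After filtering, 1540 WT and 828 KO cells were clustered together without the genes described here, and clusters were named from marker genes, so that a class is called mesenchymal-like, glial-like or melanoblast-like.

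With 1 library per genotype, nothing was replicated and differences were not tested. Parentheses hold 95% intervals, which cover counting error only. They are exact Poisson intervals for levels, which are the UMIs of a gene scaled to all UMIs of the class (CPM), Clopper-Pearson intervals for shares of cells, and conditional binomial intervals for log2 ratios of KO over WT. UMIs of 3′ tags are not scaled by gene length, so levels of different genes are set side by side on the CPM scale of tags only.

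In melanoblast-like cells 35 WT UMIs of *Hira* were counted, a level of 13.8 (9.61 to 19.2) CPM, against 3 KO UMIs, a level of 3.53 (0.728 to 10.3) CPM. In glial-like cells it had 18 WT UMIs, or 11.03 (6.54 to 17.4) CPM, and 9 KO UMIs, or 7.53 (3.44 to 14.3) CPM, and in mesenchymal-like cells 8 WT UMIs, or 6.73 (2.91 to 13.3) CPM, and 18 KO UMIs, or 11.3 (6.72 to 17.9) CPM. Over all cells it had 11.6 (9.24 to 14.4) CPM in WT and 10.01 (7.43 to 13.2) CPM in KO. The KO level was lower in melanoblast-like and glial-like and higher in mesenchymal-like cells, with overlapping intervals of the levels in each. Such intervals can overlap where that of a log2 ratio excludes 0, and no log2 ratio is given for *Hira*. Where the deleted part of the gene lies relative to the 3′ tag is not given in the sources used here, so these counts check the labels only weakly. *Xist*, which is transcribed from the inactive X chromosome, had 16822 UMIs in all WT cells and 23 in all KO cells, and the Y-linked gene *Eif2s3y* had 0 and 220. The WT library was thus female and the KO library male, and genotype, sex, embryo and library cannot be told apart in any comparison of KO with WT. The only male among the KO embryos that the study lists was processed together with a female WT littermate. The labels do not say whether the WT library is that littermate. In number of barcodes, 1546 WT and 846 KO, the libraries lie close to the cell numbers that the study lists for that pair, without matching them exactly. The other embryos that it lists have far more cells.

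Collagen chains are modified in the endoplasmic reticulum while they are being folded: prolyl 4-hydroxylation makes the triple helix stable at body temperature, lysyl hydroxylation prepares sites for crosslinks and for sugars, and HSP47, the product of *Serpinh1*, binds the helix on its way out of the endoplasmic reticulum. Outside the cell, lysyl oxidases convert lysine and hydroxylysine side chains to aldehydes that form covalent crosslinks between collagen molecules and in elastin. In skin these steps are best known from dermal fibroblasts, the main makers of fibrillar collagen.

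The mesenchymal-like cells held the highest level of the 10 genes together in both libraries. Their summed level was 3302 (3199 to 3407) CPM in the 235 WT and 3663 (3570 to 3759) CPM in the 266 KO mesenchymal-like cells. It was 1861 (1795 to 1928) CPM in 447 WT and 1584 (1514 to 1658) CPM in 254 KO glial-like cells, and 646 (615 to 678) CPM in 535 WT and 707 (652 to 766) CPM in 139 KO melanoblast-like cells. The order of these classes was the same in both libraries, with intervals that did not overlap.

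Among the other classes with at least 20 cells in a library, the summed level was 927 (730.3 to 1160) CPM in 21 WT endothelial-like, 640.2 (559 to 730.0) CPM in 30 WT adipocyte-like, 416 (371 to 464) CPM in 81 KO keratinocyte-like and 262 (207 to 328) CPM in 92 WT mast cell-like cells. Macrophage-like cells had 461 (416 to 510.1) CPM in 146 WT cells and 816 (714 to 929) CPM in 36 KO cells. The order among WT melanoblast-like, adipocyte-like and endothelial-like cells was partly within counting error, since the first pair had overlapping intervals. It also moved with the clustering: the adipocyte-like level was 1040.0 CPM with at least 500 genes per cell, 1039 CPM at Leiden resolution 2 and 1036 CPM with the listed genes left among the variable genes. Of all UMIs of the 10 genes, mesenchymal-like cells held 41.4% (40.4 to 42.4) in the WT and 64.3% (63.3 to 65.3) in the KO library. This share follows the make-up of the sorted cells too, because mesenchymal-like cells were 15.3% (13.5 to 17.2) of the WT and 32.1% (29.0 to 35.4) of the KO cells.

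**Figure D1:**
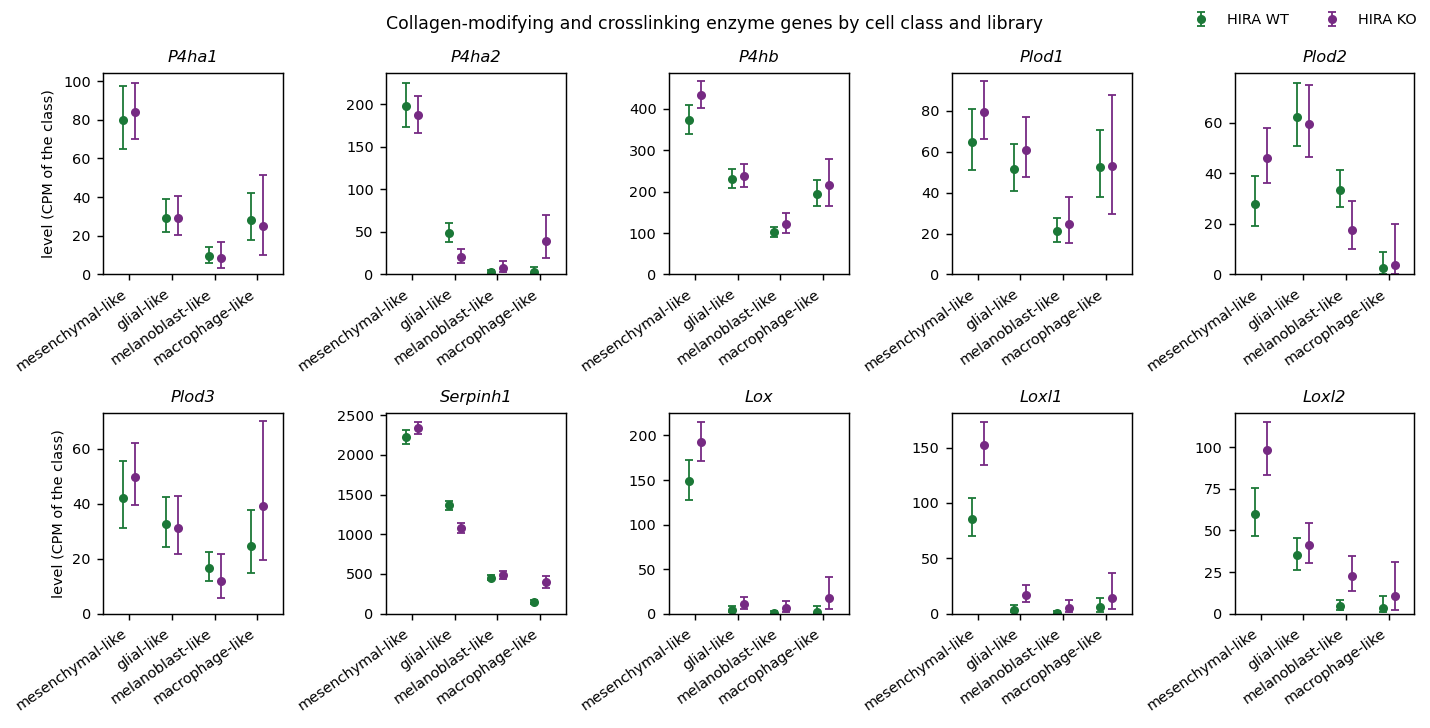
Level of each of the 10 genes in CPM of the class (vertical axes, each from 0) in mesenchymal-like, glial-like, melanoblast-like and macrophage-like cells, in the WT library (green) and the KO library (purple), with bars for exact Poisson 95% intervals of the counting error. Most genes are highest in mesenchymal-like cells, while *Plod2* is highest in glial-like cells (62.5 in WT, 59.4 in KO). In KO its glial-like and mesenchymal-like levels were not distinguishable, with a log2 ratio of mesenchymal-like over glial-like cells of -0.37 (-0.86 to 0.12).

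Prolyl 4-hydroxylase is a tetramer of catalytic α subunits and of protein disulfide isomerase as the β subunit. The α subunit gene *P4ha1* (ENSMUSG00000019916, plus strand of chromosome 10, 59323296 to 59373304 of GRCm38 in GENCODE M21, which is used for all gene positions) had a level of 79.9 (64.7 to 97.7) CPM in WT and 83.8 (70.2 to 99.3) CPM in KO mesenchymal-like cells. It was 29.4 (21.7 to 39.0) CPM in WT and 29.3 (20.4 to 40.7) CPM in KO glial-like cells, and 9.46 (6.06 to 14.1) CPM in WT and 8.23 (3.31 to 17.0) CPM in KO melanoblast-like cells. Its level thus fell from class to class in the same order in both libraries, and the libraries differed by less than counting error in each class.

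The other α subunit gene, *P4ha2* (ENSMUSG00000018906, plus strand of chromosome 11, 54100095 to 54131665), was the more restricted of the pair. Its level was 199 (174 to 226) CPM in WT and 187 (166 to 209.7) CPM in KO mesenchymal-like cells. Within the WT library this was 4.10-fold (3.17 to 5.36) above glial-like cells, and within the KO library 9.32-fold (6.14 to 14.8). In glial-like cells *P4ha2* had 79 WT UMIs, or 48.4 (38.3 to 60.3) CPM, and 24 KO UMIs, or 20.1 (12.9 to 29.9) CPM. The KO level was lower, with a log2 ratio of -1.27 (-1.99 to -0.59). In melanoblast-like cells only 7 WT and 6 KO UMIs of *P4ha2* were counted, 2.76 (1.11 to 5.69) CPM and 7.06 (2.59 to 15.4) CPM, and a difference was not detectable at this depth.

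*P4hb* (ENSMUSG00000025130, minus strand of chromosome 11, 120560298 to 120573253) encodes the β subunit, which also works as a general protein disulfide isomerase. It was counted in every class with at least 20 cells. Its level was 373 (339 to 409) CPM in WT and 433 (402 to 467) CPM in KO mesenchymal-like cells, 231 (208 to 256) CPM and 239 (212 to 268) CPM in glial-like cells, and 102 (89.7 to 115) CPM and 122 (99.96 to 148) CPM in melanoblast-like cells. In macrophage-like cells it was 194 (165 to 227) CPM and 217 (166 to 278) CPM, above the level in melanoblast-like cells of the same library. The WT mesenchymal-like level was only 1.61-fold (1.40 to 1.86) above that of glial-like cells, a flatter profile than that of *P4ha2*.

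Of the lysyl hydroxylases, *Plod1* and *Plod3* had close levels in WT mesenchymal-like and glial-like cells and lower ones in melanoblast-like cells. *Plod1* (ENSMUSG00000019055, minus strand of chromosome 4, 147909753 to 147936767), which acts mainly on lysines of the triple helix, had 64.8 (51.1 to 81.0) CPM in WT and 79.4 (66.1 to 94.5) CPM in KO mesenchymal-like cells. It had 51.5 (41.1 to 63.7) CPM in WT and 61.1 (47.9 to 76.8) CPM in KO glial-like cells. The difference between these classes was within counting error, at 1.26-fold (0.911 to 1.73) in WT and 1.30-fold (0.966 to 1.76) in KO. Melanoblast-like cells were lower, with 21.3 (15.99 to 27.8) CPM in WT and 24.7 (15.3 to 37.8) CPM in KO, while macrophage-like cells, which are not makers of fibrillar collagen, had 52.6 (38.1 to 70.8) CPM and 53.2 (29.8 to 87.8) CPM.

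*Plod3* (ENSMUSG00000004846, plus strand of chromosome 5, 136987019 to 136996648) encodes the lysyl hydroxylase that also adds glucose to hydroxylysine-linked galactose. Its level was 42.1 (31.2 to 55.5) CPM in WT and 49.8 (39.4 to 62.0) CPM in KO mesenchymal-like cells, and 32.5 (24.3 to 42.5) CPM and 31.0 (21.8 to 42.7) CPM in glial-like cells. In melanoblast-like cells it was 16.6 (11.9 to 22.4) CPM and 11.8 (5.64 to 21.6) CPM. The difference between mesenchymal-like and glial-like cells was within counting error in WT, at 1.29-fold (0.862 to 1.94). In KO it was 1.61-fold (1.07 to 2.44), with an interval above 1. The log2 ratio of KO to WT had an interval that includes 0 in each of the 3 classes, at 0.24 (-0.29 to 0.78), -0.07 (-0.72 to 0.56) and -0.49 (-1.65 to 0.53).

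*Plod2* (ENSMUSG00000032374, plus strand of chromosome 9, 92542223 to 92608428), the hydroxylase of the telopeptide lysines that lead to hydroxylysine-derived crosslinks, departed from the order of the others. It was highest in glial-like cells, with 62.5 (51.0 to 75.9) CPM in WT and 59.4 (46.4 to 75.0) CPM in KO. Mesenchymal-like cells had 33 WT UMIs, or 27.8 (19.1 to 39.0) CPM, and 73 KO UMIs, or 46.0 (36.1 to 57.8) CPM. Melanoblast-like cells had 85 WT UMIs, or 33.5 (26.8 to 41.4) CPM, and 15 KO UMIs, or 17.6 (9.88 to 29.1) CPM. In the WT library the mesenchymal-like level was below the glial-like level, with a log2 ratio of -1.17 (-1.78 to -0.59), and not distinguishable from the melanoblast-like level, with a log2 ratio of -0.27 (-0.90 to 0.32). In the KO library the mesenchymal-like level was not distinguishable from the glial-like level, with a log2 ratio of -0.37 (-0.86 to 0.12), and was above the melanoblast-like level, with a log2 ratio of 1.38 (0.57 to 2.29). The mesenchymal-like class had its largest part in the *Crabp1*-led cluster in WT and in the *Aspn*-led cluster in KO, clusters whose values are given further on. Macrophage-like cells had only 2 WT UMIs and 1 KO UMI of *Plod2*, and mast cell-like cells 1 WT UMI.

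*Serpinh1* (ENSMUSG00000070436, minus strand of chromosome 7, 99345376 to 99353239) gave most of the UMIs of the 10 genes, 6420 of 9474 in the WT and 5744 of 9036 in the KO library. Its level was 2222 (2138 to 2308) CPM in WT and 2341 (2266 to 2417) CPM in KO mesenchymal-like cells. Glial-like cells had 1362 (1306 to 1420.2) CPM in WT and 1076 (1018 to 1137) CPM in KO, and melanoblast-like cells had 454 (428 to 481) CPM in WT and 482 (437 to 531) CPM in KO. The chaperone was thus well counted in all 3 classes, and the KO level in glial-like cells was lower by a log2 ratio of -0.34 (-0.44 to -0.24). In endothelial-like cells of the WT library it reached 756 (579.7 to 969) CPM, while the 21 cells had 4 UMIs of *Col1a1*, an α chain of type I collagen.

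Of the 10 genes, *Lox* and *Loxl1* had the largest share of their UMIs in mesenchymal-like cells in both libraries. *Lox* (ENSMUSG00000024529, minus strand of chromosome 18, 52516067 to 52529867), which oxidizes fibrillar collagen and elastin, had 149 (128 to 173) CPM in WT and 192 (171 to 215) CPM in KO mesenchymal-like cells. Glial-like cells had 7 WT and 13 KO UMIs, 4.29 (1.72 to 8.84) CPM and 10.9 (5.79 to 18.6) CPM, and melanoblast-like cells had 2 WT and 5 KO UMIs. Of all *Lox* UMIs, 92.2% (87.4 to 95.6) in the WT and 91.0% (87.5 to 93.9) in the KO library were in mesenchymal-like cells, a similar share although the class was larger among KO cells.

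*Loxl1* (ENSMUSG00000032334, minus strand of chromosome 9, 58287738 to 58313186), best known for its part in elastic fibers, had 102 WT UMIs, or 85.8 (70.0 to 104) CPM, and 242 KO UMIs, or 152 (134 to 173) CPM, in mesenchymal-like cells. Glial-like cells had 6 WT UMIs, or 3.68 (1.35 to 8.004) CPM, and 20 KO UMIs, or 16.7 (10.2 to 25.9) CPM. Adipocyte-like cells of the WT library had 16 UMIs, or 45.9 (26.3 to 74.6) CPM, and mast cell-like cells had 0 UMIs, for which the floor of 3 counts is 10.1 CPM. The KO level was above the WT level in mesenchymal-like cells, at a log2 ratio of 0.83 (0.49 to 1.18), and that difference was much smaller within single clusters, as given below.

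*Loxl2* (ENSMUSG00000034205, plus strand of chromosome 14, 69609068 to 69695834), a lysyl oxidase that acts on type IV collagen of basement membranes among other substrates, was less concentrated. It had 59.7 (46.6 to 75.3) CPM in WT and 98.3 (83.5 to 115) CPM in KO mesenchymal-like cells, and 34.9 (26.5 to 45.3) CPM and 41.0 (30.3 to 54.2) CPM in glial-like cells. Melanoblast-like cells had 12 WT UMIs, or 4.73 (2.44 to 8.26) CPM, and 19 KO UMIs, or 22.4 (13.5 to 34.9) CPM. The WT glial-like level was 7.39-fold (3.92 to 15.1) above the WT melanoblast-like level, and the KO glial-like level was 1.84-fold (1.06 to 3.30) above the KO melanoblast-like level.

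Shares of cells with a UMI depend on depth, so each cell was also thinned to 2000 UMIs, a depth that 102 WT cells and 23 KO cells did not reach. The median depth was 4447 UMIs in WT and 5418.5 in KO mesenchymal-like cells, 3372 and 4208 in glial-like cells, 4343 and 5654 in melanoblast-like cells, 4850.5 and 6796.5 in macrophage-like cells, and 2762.5 in WT mast cell-like cells. *Serpinh1* was found in 99.6% of WT and 99.2% of KO mesenchymal-like cells, and after thinning in 97.8% (94.9 to 99.3) and 95.02% (91.6 to 97.3). After thinning it was found in 90.5% (87.2 to 93.1) of WT and 82.1% (76.7 to 86.7) of KO glial-like cells, against 95.3% and 92.9% before. Melanoblast-like cells had thinned shares of 56.0% (51.6 to 60.3) in WT and 65.5% (56.9 to 73.3) in KO, against 79.4% and 89.9% before. Macrophage-like and mast cell-like cells, which should make little fibrillar collagen, had thinned shares of 11.8% (6.88 to 18.4) in WT macrophage-like, 25.0% (12.1 to 42.2) in KO macrophage-like and 7.58% (2.51 to 16.8) in WT mast cell-like cells, against 25.3%, 50.0% and 8.70% before. The shares in the 3 main classes were thus above those of the macrophage-like cells in each library. By level this was not so for KO melanoblast-like cells, since macrophage-like cells had 144 (119 to 173) CPM in WT and 398 (327 to 478) CPM in KO, and the log2 ratio of KO melanoblast-like over macrophage-like cells was 0.28 (-0.03 to 0.59).

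For *Loxl1* the thinned share in mesenchymal-like cells was 12.9% (8.80 to 18.0) in WT and 25.7% (20.5 to 31.4) in KO, against 25.1% and 43.6% before. For *Loxl2* it was 9.78% (6.23 to 14.4) and 16.9% (12.5 to 22.0), against 21.7% and 40.2% before. In macrophage-like cells *Loxl1* was found in 2.74% of WT and 5.56% of KO cells, and after thinning in 0 of 136 and 0 of 36, while *Loxl2* was found in 2.05% and 5.56%, and after thinning in 1 WT and 0 KO cells. *P4hb* had a thinned share in macrophage-like cells of 33.8% (25.9 to 42.4) in WT and 36.1% (20.8 to 53.8) in KO, beside 37.2% (32.5 to 42.0) and 34.96% (29.0 to 41.3) in glial-like cells. Before thinning these shares were 56.8% and 77.8% in macrophage-like and 52.1% and 59.1% in glial-like cells.

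Counting the 10 genes per cell after thinning, the median cell had 3 of them in WT and 3 in KO mesenchymal-like cells, 2 and 2 in glial-like cells, and 1 and 1 in melanoblast-like cells. At least 3 of the genes were found in 55.1% (48.4 to 61.7) of WT and 57.9% (51.6 to 63.9) of KO mesenchymal-like cells, and in 17.8% (14.3 to 21.9) of WT and 18.7% (14.0 to 24.1) of KO glial-like cells. In melanoblast-like cells this share was 2.29% (1.19 to 3.96) in WT and 3.60% (1.18 to 8.19) in KO, close to the 2.21% (0.457 to 6.31) and 5.56% (0.680 to 18.7) of macrophage-like cells. Co-detection of several of the enzymes in 1 cell was therefore mostly seen in mesenchymal-like cells at this depth.

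KO and WT were then compared gene by gene within the 3 main classes, a comparison of 2 libraries and not of replicated conditions. A gene counted as higher or lower when it had at least 50 UMIs in the class over both libraries and a CPM ratio of at least 1.5-fold. In mesenchymal-like cells all 10 genes had at least 50 UMIs. Of these, 3 (*Plod2*, *Loxl1* and *Loxl2*) were higher in KO and 0 lower, where 10.4% of 5309 genes were higher and 6.12% lower. At the WT make-up of clusters, described below, the log2 ratios of these 3 genes were -0.18, 0.12 and 0.56, each under 1.5-fold. The median log2 ratio of the 10 genes was 0.27, beside -0.02 for all 5309 genes. In glial-like cells 8 of the genes had at least 50 UMIs, 0 were higher and 1 (*P4ha2*) was lower, where 6.36% of 5678 genes were higher and 5.48% lower. Their median was -0.04, beside -0.03 for all genes, and with edgeR's TMM scaling the split of all genes moved from 361 higher and 311 lower to 320 and 394. In melanoblast-like cells 5 of the genes had at least 50 UMIs, 0 were higher and 1 (*Plod2*) was lower, where 6.74% of 5429 genes were higher and 6.48% lower. With TMM the split in melanoblast-like cells moved from 366 higher and 352 lower to 287 and 453. The median of the 5 genes there was 0.09, beside -0.02 for all genes.

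*Plod2* counted as higher in one class and as lower in another. Its log2 ratio was 0.73 (0.12 to 1.37) in mesenchymal-like, -0.07 (-0.53 to 0.38) in glial-like and -0.93 (-1.82 to -0.12) in melanoblast-like cells. For *Loxl2* the ratio was 0.72 (0.30 to 1.14) in mesenchymal-like and 0.23 (-0.35 to 0.81) in glial-like cells, and 2.24 (1.12 to 3.42) in melanoblast-like cells on 31 UMIs, which is under the minimum of 50. *Lox* was higher in KO mesenchymal-like cells by less than the threshold, with a log2 ratio of 0.37 (0.10 to 0.64), and *P4hb* likewise with 0.22 (0.04 to 0.39). *Serpinh1* had a log2 ratio of 0.08 (0.00 to 0.15) there. The ratios of *P4ha1*, *P4ha2*, *Plod1* and *Plod3* there had intervals that include 0 and ranged from -0.09 to 0.29.

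For the 10 genes together the log2 ratio was 0.15 (0.09 to 0.21) in mesenchymal-like cells, -0.23 (-0.32 to -0.15) in glial-like cells and 0.13 (-0.01 to 0.27) in melanoblast-like cells. These sums are dominated by *Serpinh1*. Without it the ratio was 0.29 (0.19 to 0.39) in mesenchymal-like, 0.03 (-0.13 to 0.18) in glial-like and 0.23 (-0.02 to 0.47) in melanoblast-like cells, and the lower sum of KO glial-like cells was not seen without the chaperone.

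**Figure D2:**
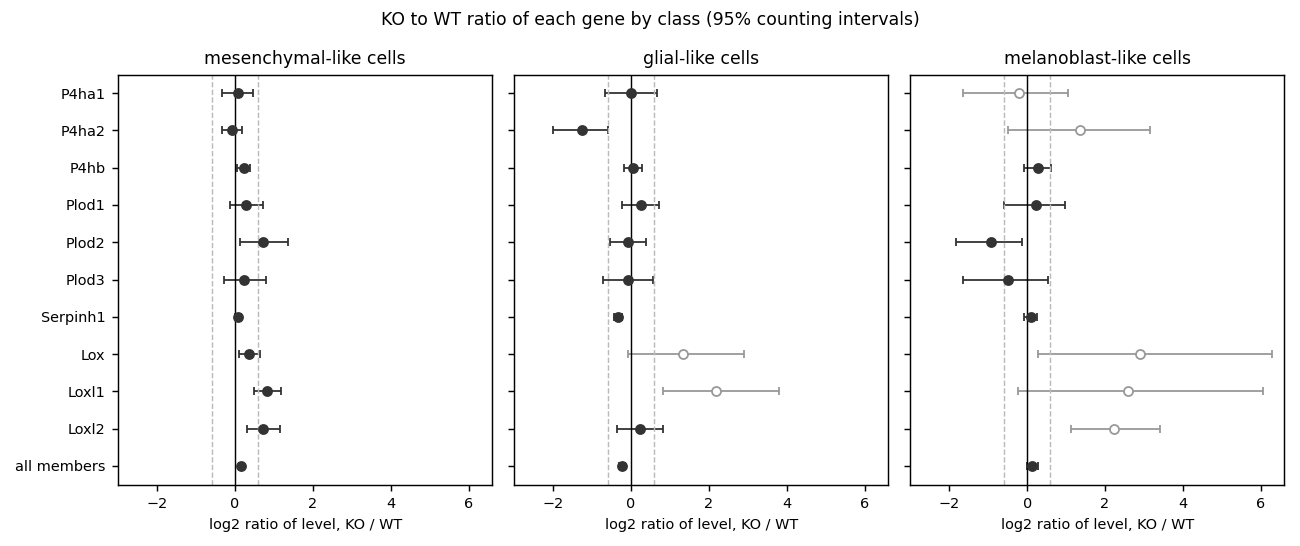
Log2 ratio of KO to WT CPM of each of the 10 genes in mesenchymal-like, glial-like and melanoblast-like cells, with exact conditional binomial 95% intervals of the counting error; filled points have at least 50 UMIs over both libraries, open grey points have fewer, and dashed lines mark 1.5-fold. *Plod2* lies above 0 in mesenchymal-like cells (0.73) and below 0 in melanoblast-like cells (-0.93), and *P4ha2* lies below 0 in glial-like cells (-1.27).

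Marker genes of other cell types also differed between the libraries within the 3 main classes, and the lists whose summed level differed by at least 1.5-fold are given for each. The keratinocyte list summed to 53.8 CPM in WT and 452 CPM in KO mesenchymal-like cells, with 6 and 10 of its 10 genes counted, *Krt10* the most abundant in both and *Krt15*, *Trp63*, *Perp* and *Epcam* at 0 in WT. The erythroid list summed to 79.9 CPM and 1222 CPM there, with 4 and 7 of its 8 genes counted, and *Hbb-bs* the most abundant in both. The muscle list summed to 51.3 CPM and 160.04 CPM, with 8 of 9 genes counted in each, *Myog* and *Actc1* the most abundant and *Pax7* at 0 in both. The pericyte list summed to 151 CPM and 243 CPM, with 7 and 8 of 8 genes counted, *Ndufa4l2* the most abundant and *Higd1b* at 0 in WT. The neutrophil list summed to 32.8 CPM and 215 CPM, with 5 and 6 of 7 genes counted, *S100a8* the most abundant, *Ltf* and *Elane* at 0 in WT and *Mpo* at 0 in KO, and the adipocyte list to 532 CPM and 261 CPM, with 6 and 5 of 9 genes counted, *Car3* and *Fabp4* the most abundant, *Ucp1*, *Plin1* and *Cidec* at 0 in both and *Cidea* at 0 in KO. The mast cell list summed to 112 CPM and 18.9 CPM, with 6 and 4 of 8 genes counted, *Cma1* the most abundant, *Tpsab1* and *Fcer1a* at 0 in both and *Mcpt4* and *Ms4a2* at 0 in KO, and the melanoblast list to 419.8 CPM and 234 CPM, with 10 and 9 of 10 genes counted, *Dct* the most abundant and *Tyrp1* at 0 in KO. The macrophage list summed to 113 CPM and 57.97 CPM, with 10 and 9 of 10 genes counted, *C1qc* the most abundant in WT and *Lyz2* in KO and *Ptprc* at 0 in KO, and the neuron list to 136 CPM and 78.1 CPM, with 3 and 5 of 8 genes counted, and *Stmn2* the most abundant. The part of these differences in the ratios of the 10 genes was not tested.

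The mesenchymal-like class consisted of 3 clusters, and the libraries filled them unequally. A cluster led by *Crabp1*, *Twist2* and *Egfl6* held 174 WT and 103 KO cells, a cluster led by *Aspn*, *Mfap4* and *Angptl1* held 40 WT and 134 KO cells, and a cluster led by *Mfap5*, *Ly6a* and *Clec3b* held 21 WT and 29 KO cells. The *Crabp1*-led cluster gave 74.8% of the WT and 39.5% of the KO UMIs of the class, the *Aspn*-led cluster 17.9% and 45.9%, and the *Mfap5*-led cluster 7.27% and 14.5%. The largest part of the class was therefore the *Crabp1*-led cluster in WT and the *Aspn*-led cluster in KO.

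The lysyl oxidases and *Plod2* were then read per cluster. *Loxl1* had 46.1 (33.1 to 62.6) CPM in WT and 47.8 (32.2 to 68.2) CPM in KO cells of the *Crabp1*-led cluster, 155 (107 to 217) CPM and 185 (155 to 219) CPM in the *Aspn*-led cluster, and 324 (215 to 468) CPM and 334 (264 to 417) CPM in the *Mfap5*-led cluster. The clusters stood in the same order in both libraries, and within each of them KO and WT differed by less than counting error, with log2 ratios of 0.05 (-0.68 to 0.77), 0.26 (-0.30 to 0.86) and 0.04 (-0.60 to 0.72). When the KO clusters were given the WT shares of the class, the log2 ratio of *Loxl1* was 0.12 in place of 0.83. *Lox* behaved alike, with 124 (102 to 149) CPM in WT and 137 (110 to 169) CPM in KO cells of the *Crabp1*-led cluster, 155 (107 to 217) CPM and 179.7 (150.3 to 213) CPM in the *Aspn*-led cluster, and 393 (272 to 549) CPM and 382 (306 to 470.2) CPM in the *Mfap5*-led cluster. At WT shares its log2 ratio was 0.13.

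*Plod2* had 13 WT UMIs, or 14.6 (7.79 to 25.0) CPM, and 6 KO UMIs, or 9.56 (3.51 to 20.8) CPM, in the *Crabp1*-led cluster. In the *Aspn*-led cluster it had 9 WT UMIs, or 42.2 (19.3 to 80.1) CPM, and 55 KO UMIs, or 75.5 (56.9 to 98.2) CPM, and in the *Mfap5*-led cluster 11 WT UMIs, or 127 (63.5 to 228) CPM, and 12 KO UMIs, or 52.0 (26.9 to 90.9) CPM. Within clusters the log2 ratio was -0.61 (-2.30 to 0.88), 0.84 (-0.19 to 2.04) and -1.29 (-2.60 to 0.03), each with an interval that includes 0, and at WT shares it was -0.18. The higher *Plod2* level of the KO class was thus not seen as a common direction within its clusters. With at least 500 genes per cell the mesenchymal-like class held the *Crabp1*-led cluster only, and the class ratio of *Plod2* was -0.55 and that of *Loxl1* 0.14.

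*Loxl2* had a higher KO level in the *Crabp1*-led cluster, where it had 42.7 (30.2 to 58.7) CPM in WT and 81.2 (60.5 to 107) CPM in KO, a log2 ratio of 0.93 (0.29 to 1.57). In the *Aspn*-led cluster it had 89.1 (53.6 to 139) CPM and 111 (88.3 to 138) CPM, and in the *Mfap5*-led cluster 162 (88.5 to 272) CPM and 104 (66.7 to 155) CPM, a log2 ratio of -0.64 (-1.65 to 0.43). At WT shares its log2 ratio in the class was 0.56, in place of 0.72, which is under the threshold of 1.5-fold.

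*P4ha2* had another order, with its lowest level in the *Aspn*-led cluster. It had 224 (194 to 257) CPM in WT and 277 (238 to 322) CPM in KO cells of the *Crabp1*-led cluster, 42.2 (19.3 to 80.1) CPM and 102 (79.7 to 127) CPM in the *Aspn*-led cluster, and 324 (215 to 468) CPM and 212 (157 to 281) CPM in the *Mfap5*-led cluster. Its log2 ratio was 0.31 (0.01 to 0.61) and 1.27 (0.26 to 2.45) in the first pair, the latter on 9 WT and 74 KO UMIs, and -0.61 (-1.31 to 0.12) in the *Mfap5*-led cluster. At WT shares it was 0.28, while the class as a whole had -0.09. *P4ha1* was nearly level over the clusters, from 76.5 CPM to 108 CPM over clusters and libraries. *Plod1* had 1 WT and 23 KO UMIs in the *Mfap5*-led cluster, a log2 ratio of 3.11 (0.49 to 8.47). In the *Crabp1*-led and *Aspn*-led clusters its log2 ratios were 0.17 (-0.39 to 0.73) and 0.34 (-0.58 to 1.38).

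*Serpinh1* differed less in relative terms, with 2241 (2143 to 2341) CPM in WT and 2632 (2506 to 2762) CPM in KO cells of the *Crabp1*-led cluster, 1894 (1714 to 2088) CPM and 1940.2 (1840.3 to 2044) CPM in the *Aspn*-led cluster, and 2833 (2489 to 3211) CPM and 2815 (2602 to 3039.7) CPM in the *Mfap5*-led cluster. Its log2 ratio was 0.23 (0.14 to 0.33) in the *Crabp1*-led cluster and 0.03 (-0.13 to 0.20) and -0.01 (-0.22 to 0.21) in the others. For the 10 genes together, the *Mfap5*-led cluster had the highest level in both libraries, 4961 (4503 to 5453) CPM in WT and 4623 (4349.6 to 4909) CPM in KO.

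**Figure D3:**
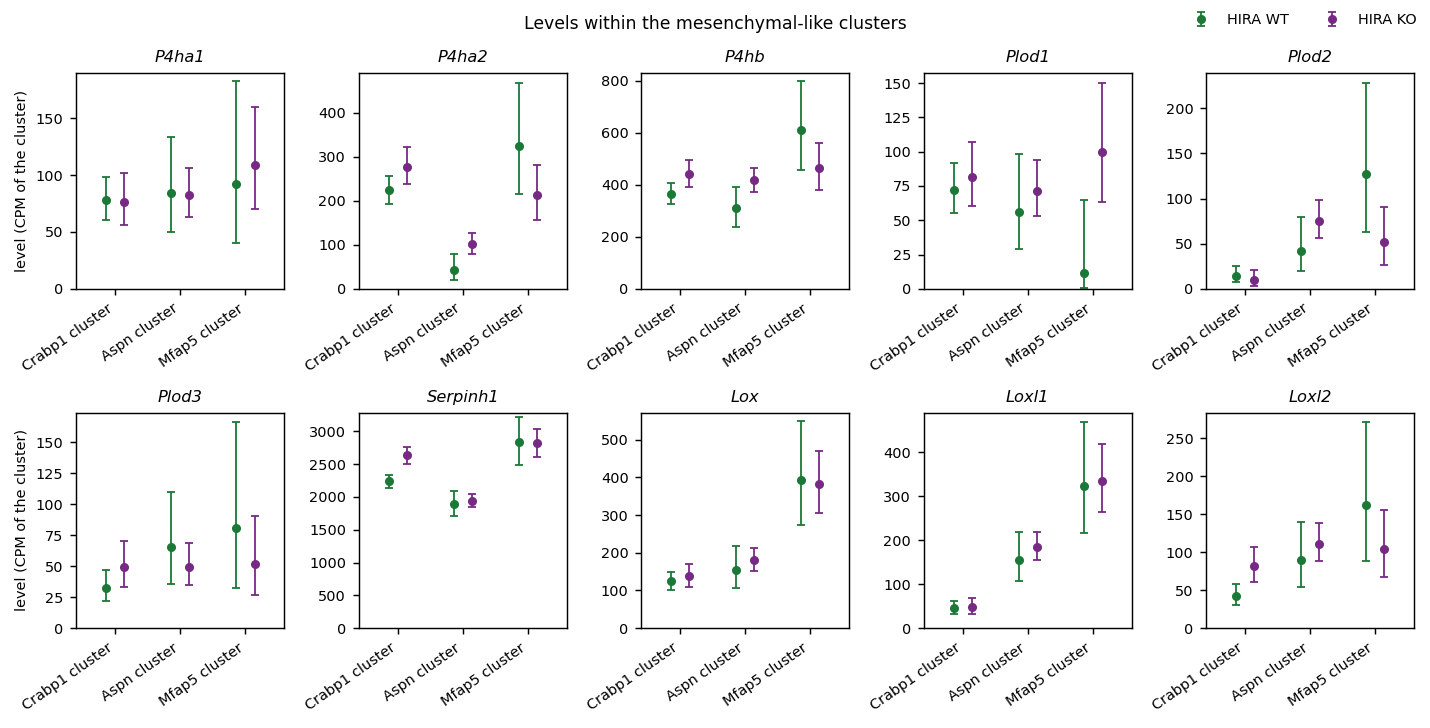
Level in CPM of the cluster (vertical axes, each from 0) of each of the 10 genes in the mesenchymal-like clusters led by *Crabp1*, *Aspn* and *Mfap5*, in the WT library (green) and the KO library (purple), with bars for exact Poisson 95% intervals of the counting error. *Loxl1* goes from 46.1 to 155 and 324 CPM over these clusters in WT and from 47.8 to 185 and 334 CPM in KO.

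In glial-like cells the lower KO level of *Serpinh1* had the same sign in all 5 clusters. In the cluster led by *Pcdh20* and *Gabra2*, the one with most WT cells, it had 1247 (1152 to 1348) CPM in WT and 847 (743 to 961) CPM in KO, a log2 ratio of -0.56 (-0.78 to -0.34). The cluster led by *1500015O10Rik* and *Sostdc1* had 1709.6 (1592 to 1833) CPM and 1427 (1294 to 1569.6) CPM, a ratio of -0.26 (-0.44 to -0.09), and the *Pou3f1*-led cluster had 1308 (1144 to 1489) CPM and 1013 (908 to 1128) CPM, a ratio of -0.37 (-0.61 to -0.12). In the remaining clusters, led by *Gm29865* and by *Pcdh20* and *Fabp7*, the ratios were -0.20 (-0.57 to 0.17) and -0.16 (-0.42 to 0.10), with intervals that include 0. At the WT shares of the clusters the class ratio was -0.33, close to -0.34.

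*P4ha2* in WT glial-like cells was counted mostly in the first of these clusters, with 42 WT UMIs, or 82.2 (59.3 to 111) CPM, and 7 KO UMIs, or 24.8 (9.97 to 51.1) CPM, a log2 ratio of -1.73 (-3.13 to -0.56). In the *Pou3f1*-led cluster the direction was the opposite on 1 WT and 6 KO UMIs, with a ratio of 1.67 (-1.37 to 7.20). At WT shares the class ratio was -1.25. *Plod2* was highest in the cluster led by *1500015O10Rik* and *Sostdc1*, with 95.8 (69.6 to 129) CPM in WT and 118 (82.4 to 165) CPM in KO, the cluster that also had the highest glial-like level of *Col1a1*, 1775 (1655 to 1901) CPM and 2968 (2775 to 3171) CPM. Over the glial-like class the mesenchymal marker list summed to 746 CPM in WT and 859.6 CPM in KO, with 11 of 11 genes counted in each, *Postn* the most abundant and none at 0. *Postn* gave 592 CPM of the WT sum and 547 CPM of the KO sum, so the other genes of the list together were higher in KO. The keratinocyte list summed to 85.2 CPM and 528 CPM, with 8 and 10 of 10 genes counted, *Krt10* the most abundant and *Dsp* and *Epcam* at 0 in WT, and the erythroid list to 87.6 CPM and 1131 CPM, with 4 and 7 of 8 genes counted and *Hbb-bs* the most abundant. The neutrophil list summed to 31.3 CPM and 212 CPM, with 7 of 7 genes counted in each, *S100a8* the most abundant and none at 0, and the mast cell list to 126 CPM and 26.8 CPM, with 5 and 4 of 8 genes counted, *Cma1* the most abundant in WT and *Cpa3* in KO, *Tpsab1*, *Ms4a2* and *Fcer1a* at 0 in both and *Mcpt4* at 0 in KO. The neuron list summed to 58.2 CPM and 103 CPM, with 5 and 6 of 8 genes counted, and *Uchl1* the most abundant. The adipocyte list summed to 26.97 CPM and 74.5 CPM, with 5 of 9 genes counted in each, *Fabp4* the most abundant in WT and *Car3* in KO, *Ucp1* and *Cidec* at 0 in both, *Adipoq* and *Pparg* at 0 in WT and *Cidea* and *Plin1* at 0 in KO, and the pericyte list to 22.1 CPM and 36.8 CPM, with 5 and 4 of 8 genes counted, *Ndufa4l2* the most abundant, *Abcc9* and *Higd1b* at 0 in both, *Rgs5* at 0 in WT and *Kcnj8* and *Pdgfrb* at 0 in KO. The part of these lists in the glial-like ratios was not tested.

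In melanoblast-like cells the clusters were filled unequally too: the *Mt2*-led cluster gave 29.5% of the WT and 6.50% of the KO UMIs of the class, and the *Pmel*-led cluster gave 27.8% and 53.5%. *Plod2* was lower in KO in each of the 3 clusters, with log2 ratios of -0.95 (-2.15 to 0.12) in the *Pmel*-led, -1.29 (-3.25 to 0.21) in the *Dct*-led and -0.83 (-6.19 to 1.79) in the *Mt2*-led cluster, the last on 1 KO UMI. Each of these intervals includes 0, while the interval of the class does not. At the WT shares the ratio of the class was -1.02.

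UMIs were also set against those of *Col1a1* within each class. In mesenchymal-like cells there were 58.8 (56.1 to 61.7) UMIs of *Serpinh1* per 100 UMIs of *Col1a1* in WT and 46.1 (44.4 to 48.0) in KO. Glial-like cells had 244 (226 to 264) in WT and 114 (106 to 124) in KO, and melanoblast-like cells had 1986 (1525 to 2633) in WT and 353 (287 to 438) in KO. In both classes the ratio was above that of mesenchymal-like cells. In macrophage-like cells it was 84.9 (65.9 to 109) in WT and 45.0 (35.7 to 56.4) in KO, the latter within counting error of the mesenchymal-like ratio.

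The same was done for the genes with few UMIs outside mesenchymal-like cells. *Lox* had 3.94 (3.37 to 4.58) UMIs per 100 of *Col1a1* in WT and 3.79 (3.37 to 4.25) in KO mesenchymal-like cells, and 3.45 (0.408 to 13.0) in WT and 4.31 (1.37 to 10.4) in KO melanoblast-like cells. *Loxl1* had 2.27 (1.85 to 2.77) in WT and 3.01 (2.63 to 3.42) in KO mesenchymal-like cells, and 3.45 (0.408 to 13.0) and 3.45 (0.924 to 9.07) in melanoblast-like cells. For both genes the melanoblast-like ratio, on 2 to 5 UMIs, was within counting error of the mesenchymal-like ratio. In glial-like cells *Lox* was below it, with 0.768 (0.308 to 1.59) in WT and 1.16 (0.614 to 1.99) in KO, and *Loxl1* had 0.659 (0.241 to 1.44) and 1.78 (1.08 to 2.76). *Loxl2* was above the mesenchymal-like ratio in both classes, with 6.26 (4.70 to 8.18) in WT and 4.36 (3.21 to 5.804) in KO glial-like cells, and with 20.7 (10.1 to 38.9) in WT and 16.4 (9.52 to 26.7) in KO melanoblast-like cells against 1.58 (1.23 to 1.999) and 1.94 (1.64 to 2.27) in mesenchymal-like cells.

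*Col1a1* itself was higher in KO melanoblast-like cells, with 22.9 (17.4 to 29.6) CPM in WT and 136 (113 to 164) CPM in KO. The mesenchymal list there summed to 76.5 CPM in WT and 258 CPM in KO, with 11 of 11 genes counted in each, *Dcn* the most abundant and none at 0, and in macrophage-like cells to 364 CPM and 1381 CPM, with 11 of 11 genes counted, *Dcn* the most abundant and none at 0. The melanoblast-like erythroid list summed to 78.4 CPM and 1119.9 CPM, with 4 and 6 of 8 genes counted and *Hbb-bs* the most abundant. The keratinocyte list there summed to 69.0 CPM and 446 CPM, with 9 and 8 of 10 genes counted, *Krt10* the most abundant, *Trp63* at 0 in WT and *Trp63* and *Epcam* at 0 in KO. The neutrophil list there summed to 36.7 CPM and 216 CPM, with 7 and 6 of 7 genes counted, *S100a8* the most abundant and *Ltf* at 0 in KO, and the mast cell list to 120.2 CPM and 17.6 CPM, with 5 and 4 of 8 genes counted, *Cma1* the most abundant, *Tpsab1*, *Ms4a2* and *Fcer1a* at 0 in both and *Mcpt4* at 0 in KO. The pericyte list summed to 16.6 CPM and 27.1 CPM, with 3 of 8 genes counted in each, *Cspg4* the most abundant in WT and *Ndufa4l2* in KO, *Kcnj8*, *Abcc9* and *Higd1b* at 0 in both, *Rgs5* and *Notch3* at 0 in WT and *Pdgfrb* and *Cspg4* at 0 in KO. The muscle list summed to 12.6 CPM and 23.5 CPM, with 3 and 6 of 9 genes counted, *Tnnt1* the most abundant, *Myod1*, *Myf5* and *Pax7* at 0 in both and *Myog*, *Des* and *Tnnt3* at 0 in WT, and the adipocyte list to 20.9 CPM and 12.9 CPM, with 7 and 4 of 9 genes counted, *Fabp4* the most abundant in WT and *Car3* in KO, *Ucp1* at 0 in both, *Cidec* at 0 in WT and *Adipoq*, *Cidea*, *Pparg* and *Plin1* at 0 in KO. The part of these lists in the KO values of *Lox*, *Loxl1* and *Loxl2* in melanoblast-like cells, and of *Serpinh1* and *P4ha2* in macrophage-like cells, was not tested. *P4ha2* had 2 WT and 11 KO UMIs in macrophage-like cells, a log2 ratio of 4.00 (1.80 to 7.21), and the KO UMIs came from 3 of 36 cells. In macrophage-like cells the neutrophil list summed to 768 CPM in WT and 3241 CPM in KO, and the erythroid list to 185 and 1360 CPM. The keratinocyte list summed to 44.0 and 341 CPM there, and the pericyte list to 2.45 and 31.9 CPM. Lower in KO were the melanoblast (159 and 67.4 CPM), mast cell (166 and 85.2 CPM) and endothelial lists (46.5 and 10.6 CPM). The part of these lists in the macrophage-like levels was not tested.

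The substrates and the other processing genes were read from lists in mesenchymal-like cells. Of 25 collagen chain genes, 21 had at least 50 UMIs, 7 were higher and 1 lower, and the median log2 ratio was 0.47. Over all genes of the class the shares were 10.4% higher and 6.12% lower, which is the background for each list in these cells. Among the 17 with at least 100 UMIs, the lowest were *Col26a1* at -0.75 (-1.22 to -0.29), *Col7a1*, the anchoring fibril collagen, at -0.42 (-0.94 to 0.10) and *Col4a1*, a basement membrane chain, at 0.32 (0.01 to 0.63). The highest of these were *Col11a1* at 2.01 (1.34 to 2.73), *Col14a1*, a fibril-associated collagen, at 1.15 (0.88 to 1.42) and *Col27a1* at 1.09 (0.52 to 1.68). *Col1a1* had 3776 (3666 to 3888) CPM in WT and 5072 (4962 to 5184) CPM in KO, a log2 ratio of 0.43 (0.37 to 0.48). At the WT make-up of clusters its ratio was 0.42. Within the *Crabp1*-led, *Aspn*-led and *Mfap5*-led clusters it was 0.42 (0.35 to 0.49), 0.83 (0.70 to 0.97) and -0.12 (-0.25 to 0.02). The lists were otherwise read over the whole class only, so the part of the cluster make-up in their ratios was not tested. The 10 enzyme genes together had 87.4 (83.7 to 91.3) UMIs per 100 of *Col1a1* in WT and 72.2 (69.8 to 74.7) in KO.

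Of 26 other genes of collagen processing and export, 17 had at least 50 UMIs, 5 were higher and 0 lower, and all 17 had log2 ratios above 0, with a median of 0.44. Among the 16 with at least 100 UMIs, the highest were *Bmp1*, the procollagen C-proteinase, at 0.96 (0.37 to 1.59), and the COPII coat genes *Sec23a* at 0.81 (0.29 to 1.35) and *Sec24d* at 0.73 (0.22 to 1.27). The lowest were *P3h1*, a prolyl 3-hydroxylase, at 0.05 (-0.32 to 0.41), the matricellular gene *Sparc* at 0.07 (0.02 to 0.12) and *Pcolce*, an enhancer of the C-proteinase, at 0.09 (-0.05 to 0.22). The median of all genes in the class was -0.02.

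The next list held general chaperones of the endoplasmic reticulum. Of 12 genes, 11 had at least 50 UMIs, 0 were higher and 0 lower, and the median was 0.04. Among the 9 with at least 100 UMIs, the lowest were *Dnajb11* at -0.29 (-0.73 to 0.15), *Pdia4* at -0.16 (-0.45 to 0.14) and *Hspa5*, which encodes BiP, at -0.08 (-0.24 to 0.09), and the highest were *Manf* at 0.16 (-0.03 to 0.36), *Calr* at 0.23 (0.08 to 0.38) and *Pdia3* at 0.31 (0.15 to 0.48). Of 16 hypoxia-responsive genes, a list read because several of the enzyme genes are known to respond to hypoxia, 8 had at least 50 UMIs, 0 were higher and 1 (*Pfkl*, named after its value was seen, at -0.67) was lower, with a median of -0.01. The 4 with at least 100 UMIs were the glycolytic genes *Ldha* at -0.01 (-0.16 to 0.15), *Eno1* at -0.01 (-0.26 to 0.24) and *Aldoa* at -0.05 (-0.23 to 0.14), and *Mif* at -0.31 (-0.43 to -0.20).

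The same lists were read in the other main classes, where the shares over all genes were 6.36% higher and 5.48% lower in glial-like and 6.74% and 6.48% in melanoblast-like cells. In glial-like cells 19 collagen genes had at least 50 UMIs, of which 8 were higher and 2 lower, with a median of 0.45. Of 13 other processing genes 2 were higher and 0 lower, with a median of 0.27, and of 9 hypoxia-responsive genes 2 were higher and 0 lower, with a median of 0.20. The 10 general chaperones had 0 higher and 0 lower, and 9 of them lay below 0, with a median of -0.29 beside -0.03 for all genes, so that *Serpinh1*, at -0.34, lay near their median. In melanoblast-like cells 4 collagen genes had at least 50 UMIs, 3 of them higher and 0 lower, with a median of 2.16. Of 5 other processing genes 1 was higher and 0 lower, with a median of 0.35, of 10 chaperones 0 were higher and 0 lower, with a median of -0.09, and of 8 hypoxia-responsive genes 1 was higher and 1 lower, with a median of -0.04. Among the collagen genes, *Col1a1* had a log2 ratio of 2.58 (2.11 to 3.06) in melanoblast-like cells. In macrophage-like cells its ratio was 2.38 (2.07 to 2.69), with 170 CPM in WT and 884 CPM in KO. The part of the mesenchymal marker list in the collagen ratios of glial-like and melanoblast-like cells was not tested.

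Likeness of level profiles was described over the 12 units of class and library with at least 20 cells, as Pearson correlation of log2(CPM + 10) with 5704 other genes. The units share 2 libraries and their depths, so r is a description without a test. The genes most like *P4ha1* were *Arl1* (0.947), *Tmem119* (0.945) and *Col6a1* (0.938), those most like *P4ha2* were *Kdelr3* (0.963), *Lhfp* (0.958) and *Kdelr2* (0.958), and those most like *P4hb* were *Tmed3* (0.960), *Axl* (0.957) and *Rcn3* (0.956). *Plod1* was closest to *Ntan1* (0.929), *Tpst1* (0.924) and *Cnrip1* (0.921), *Plod2* to *Iah1* (0.941), *Zfp157* (0.9297) and *Gjc1* (0.929), and *Plod3* to *Gsn* (0.903), *Sepn1* (0.875) and *Rhoq* (0.871). *Serpinh1* was closest to *Ppic* (0.980), *Maged1* (0.974) and *Ddah1* (0.971). Among lysyl oxidases, *Lox* was closest to *Aspn* (0.989), *Eln* (0.988) and *Lrrc17* (0.988), *Loxl1* to *Nfix* (0.967), *Srpx* (0.963) and *Dlk1* (0.956), and *Loxl2* to *Lhfpl2* (0.956), *Reck* (0.956) and *Olfml3* (0.951). With *Col1a1*, r ran from 0.414 for *Plod2* to 0.926 for *P4hb*, and *Plod2* had r between 0.258 and 0.695 with the other 9 enzyme genes.

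Promoter windows of 250 bases before to 50 after the RefSeq gene start were matched for 6 of the genes, *P4ha1*, *P4ha2*, *P4hb*, *Plod1*, *Plod3* and *Serpinh1*, in RefSeq sequences of GRCm38.p6, and *Plod2*, *Lox*, *Loxl1* and *Loxl2* are named only. The letters ACGTG, the core of the hypoxia response element, searched on both strands, were found in 5 of the 6 windows (all but *Plod1*), against 19.6% of all 32851 promoter windows and 24.8% of the 15976 windows with a GC content of at least 53.3%, the lowest among the 6. GGGCGG, the GC box, was found in 5 of the 6 against 35.7% of all windows, CCAAT in 2 against 37.4%, and TATAAA in 2 against 13.6%. The 6 windows had a GC content of 53.3% to 70.3%. The share of GGGCGG was not read among windows of like GC content, so its 35.7% is not a matched background. The heat shock element (GAA, TTC and GAA, each 2 bases after the last) was found in 0 of the 6 and in 0.603% of all windows, and the ER stress element (CCAAT, then CCACG after 9 bases, so that it overlaps the CCAAT motif) in 0 and in 0.119%. A match is a description of the sequence and not a site or a cause.

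The 5 stretches with ACGTG are shown so that the letters can be read in place. They are printed 5′ to 3′ on the strand of the gene, with the match to ACGTG, or to CACGT where it lies on the other strand, in capitals. The stretches lie at chr10:59323196-59323295 on the plus strand for *P4ha1*, chr11:54100824-54100923 on the plus strand for *P4ha2*, chr11:120573254-120573353 on the minus strand for *P4hb*, chr5:136986919-136987018 on the plus strand for *Plod3* and chr7:99353240-99353439 on the minus strand for *Serpinh1*, all of GRCm38.p6. The RefSeq start is the base that follows the stretch on the strand of the gene, and in *P4ha2* it lies inside the GENCODE gene. The match begins 16 bases before the RefSeq start in *P4ha1*, 78 in *P4ha2*, 56 in *P4hb*, 54 in *Plod3* and 171 in *Serpinh1*.
P4ha1: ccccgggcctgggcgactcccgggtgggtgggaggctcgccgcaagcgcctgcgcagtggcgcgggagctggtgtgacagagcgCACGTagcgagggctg
P4ha2: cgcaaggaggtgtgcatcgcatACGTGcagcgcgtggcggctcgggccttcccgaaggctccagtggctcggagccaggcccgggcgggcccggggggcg
P4hb: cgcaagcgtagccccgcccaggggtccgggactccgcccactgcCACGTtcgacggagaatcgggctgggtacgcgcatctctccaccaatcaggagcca
Plod3: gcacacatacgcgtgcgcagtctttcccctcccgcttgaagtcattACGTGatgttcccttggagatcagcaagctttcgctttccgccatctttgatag
Serpinh1: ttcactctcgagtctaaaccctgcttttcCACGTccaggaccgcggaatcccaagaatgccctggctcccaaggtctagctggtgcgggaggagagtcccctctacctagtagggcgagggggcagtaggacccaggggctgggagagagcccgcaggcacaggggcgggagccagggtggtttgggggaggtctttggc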

How the data were processed

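Gene-by-cell counts of UMIs from sorted tdTomato+ cells of trunk skin, 1 HIRA WT and 1 HIRA KO 10x 3′ library, were used as the authors deposited them. The submitters' processing notes name Cell Ranger 2.2.0 and mm10. The members, lists and rules were chosen with earlier results of these data known. Barcodes were removed for under 100 genes (4 WT, 6 KO), over 40000 UMIs (0, 0) or a mitochondrial share over 10% (3, 12). A WT barcode failed on both genes and mitochondrial share, so that 6 WT and 18 KO barcodes were removed. This kept 1540 WT and 828 KO cells, and no barcode was shared between the libraries. Cells of both were scaled to 10000, and the 2000 most variable genes without the listed genes (1971) gave 30 principal components, 15 neighbours and Leiden clusters at resolution 1 with seed 0 in scanpy 1.11.5 (Python 3.11.15). A cluster took a class name where at least 3 of the markers of that class were raised, in at least 10% of its cells and by at least 1 on the log2 scale with 10 CPM added, and where its leading genes did not go against it. This gave 20 clusters and 10 of 13 classes. Which erythroid and neuron markers were at 0 is not reported here. Scrublet marked 9 WT and 6 KO doublets, which were kept. UMIs were summed per class and library. Shares of cells were also read after thinning to 2000 UMIs. A ratio counted as higher or lower from 1.5-fold with at least 50 UMIs, and a UMI count of 0 was given a floor of 3 counts. In each other list the genes named were the 3 highest and the 3 lowest log2 ratios in mesenchymal-like cells among those with at least 100 UMIs. TMM factors came from edgeR 4.0.16 in R 4.3.3. Likeness used genes with at least 200 UMIs. Calculations used numpy 2.4.6, scipy 1.17.1 and pandas 2.3.3, with igraph 0.11.9, and steps were checked on simulated counts. Alternatives were Leiden resolution 0.5 and 2, at least 500 genes, each library clustered alone, the listed genes left among the variable genes, doublets left out, TMM, the mean over cells of CPM, thinned cells, minimums of 20 and 200 UMIs, a 2-fold threshold, single mesenchymal-like clusters, and the WT make-up of clusters.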

Additional observations from a re-analysis of the deposited data

Results flagged for a closer look

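Among the 3 main cell classes, the ratio of KO to WT had counting intervals on opposite sides of 0 in a pair of classes for *Plod2*, for *Serpinh1* and for the 10 genes together. For *Plod2* the log2 ratio was -0.93 in melanoblast-like and 0.73 in mesenchymal-like cells, and the latter was below 0 in 4 of 13 alternatives, at -0.18 with the WT make-up of clusters and at -1.29 at the lowest. For *Serpinh1* it was -0.34 in glial-like and 0.075 in mesenchymal-like cells, and for the 10 genes together -0.23 and 0.15. In each of these the difference was not tested, since there was 1 library per genotype.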

How the results depend on the processing

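With at least 500 genes per cell the mesenchymal-like class held the *Crabp1*-led cluster only: the log2 ratio of *Plod2* was -0.55 there, 1 of the 10 genes was higher, and the summed levels were 3198.5 CPM in WT mesenchymal-like, 364 in WT and 699.6 in KO macrophage-like and 1040.0 in WT adipocyte-like cells. *Plod2* had -0.18 with the WT make-up of clusters, -0.61 in the *Crabp1*-led and -1.29 in the *Mfap5*-led cluster, where *Loxl2* had -0.64. With each library clustered alone the summed mesenchymal-like log2 ratio was 0.22, and summed levels were 3921 CPM in KO mesenchymal-like, 364 in WT macrophage-like and 769 in WT adipocyte-like cells. In that setting the classes held other cells, with 178 WT and 161 KO cells in unnamed clusters. The mesenchymal-like class held 238 WT and 173 KO cells, and the melanoblast-like class 365 WT cells. As a mean over cells the summed mesenchymal-like ratio was 0.043, and levels were 3462 CPM in WT and 3566 in KO mesenchymal-like, 1477 in KO glial-like, 402 in WT and 623 in KO macrophage-like and 501 in WT adipocyte-like cells. After thinning the summed mesenchymal-like ratio was 0.058, the median ratio in melanoblast-like cells 0.26 and the lower genes there 0, and levels were 3449 CPM in WT mesenchymal-like, 1500 in KO glial-like, 404 in WT and 583 in KO macrophage-like and 517 in WT adipocyte-like cells. Leiden resolution 0.5 gave 364 CPM in WT and 699.6 in KO macrophage-like cells, resolution 2 gave 1039 in WT adipocyte-like cells, the listed genes left among the variable genes gave 622 in KO macrophage-like and 1036 in WT adipocyte-like cells, and leaving out doublets gave 3424 in WT mesenchymal-like cells. Apart from the change of clusters in the class, the cause was not tested. Other thresholds count other genes by construction: at 2-fold 0 were higher in mesenchymal-like and 0 lower in melanoblast-like cells, at 20 UMIs 1 was higher in melanoblast-like and 2 in glial-like cells, and at 200 UMIs 0 were lower in melanoblast-like and 0 in glial-like cells.

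Over the alternatives run for each, *P4ha2* in glial-like cells ranged from -1.53 to -1.10 and *Plod2* in melanoblast-like cells from -1.67 to -0.84. *Loxl1* in mesenchymal-like cells ranged from 0.04 to 0.95. The summed ratio ranged from -0.30 to -0.23 in glial-like, 0.07 to 0.25 in melanoblast-like and 0.04 to 0.22 in mesenchymal-like cells. Single clusters are left out of these ranges of the summed ratio, and of those of *P4ha2* in glial-like and *Plod2* in melanoblast-like cells. Among mesenchymal-like clusters the summed ratio was 0.24 in the *Crabp1*-led, 0.15 in the *Aspn*-led and -0.10 in the *Mfap5*-led cluster. Among melanoblast-like clusters it was -0.11 in the *Pmel*-led, 0.03 in the *Dct*-led and 0.74 in the *Mt2*-led cluster. In glial-like clusters it ran from -0.51 to -0.11, and *P4ha2* ran from -1.73 to 1.67 there. Of 329 ratios of single genes 299 were labelled as within their interval, 25 as outside it and 5 as of changed sign. A change of sign was labelled only for genes that counted as higher or lower. *P4ha1* in melanoblast-like cells, for example, went from -0.20 to 0.73 at the WT make-up, within its interval. Intervals on few UMIs are wide, as that of *Lox* there, 0.29 to 6.29. The alternatives reread the same libraries, so these counts describe the processing only. The WT make-up for summed ratios and for glial-like and melanoblast-like genes was chosen after seeing the data. No paired analysis was possible because there was 1 library per genotype. Depth limits *Lox* and *Loxl1* in melanoblast-like and glial-like cells, where no WT class had over 7 UMIs.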
